A study of Mus musculus with 11 samples.

Results

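The genes examined here handle thyroid hormone in the mouse eye. They comprised 7 genes: the deiodinases Dio3 and Dio2, the nuclear receptors Thra and Thrb, the transporter Slco1c1, and the binding proteins Ttr and Crym. The genes were named by symbol and found by their Ensembl identifiers among 38393 genes listed per library. The list was built round Dio3, which was picked by its place in the comparison of KO with WT, and the genotype differences of the 7 genes are therefore given as a description and not as evidence. RNA came from whole eyes of 1- to 2-month-old mice with C57BL/6 as the labelled background strain (C57Bl/6J in the methods of the study), after the lens and cornea had been taken off, so that retina, RPE, choroid, sclera and ciliary body remained. The 5 WT libraries (WT1 to WT5) came from wild-type animals and the 6 KO libraries (KO1 to KO6) from miR-211-/- animals. The miR-211-/- animals belonged to a single mouse line that lacked the precursor of the microRNA miR-211, no restriction to a cell type is stated, and no treatment is named. According to the methods of the study, the WT animals were 2 males and 3 females while the 6 KO animals were all males.

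Thyroid hormone circulates mainly as the prohormone thyroxine. Dio2 converts thyroxine to the active hormone T3 within cells, and Dio3 inactivates both by removing an iodine atom from the inner ring. T3 acts through the receptors encoded by Thra and Thrb, which bind DNA together with retinoid X receptors and recruit corepressors when no hormone is bound. In the retina this pathway is known for its control of cone opsin choice: the TRβ2 isoform of Thrb is needed for the M opsin Opn1mw and holds back the S opsin Opn1sw in dorsal cones. Slco1c1 carries thyroxine across capillary walls and other barriers, Ttr is a carrier of thyroxine made by the RPE in the eye, and Crym binds T3 in the cytosol.

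Dio3 has 1 exon and lies at chr12:110279068-110281097 on the plus strand (GRCm38), at the distal end of the imprinted Dlk1-Dio3 domain. Dio2 lies on the same chromosome at chr12:90724552-90738438. Thra is at chr11:98740638-98769006, Thrb at chr14:17660261-18038090, Slco1c1 at chr6:141524368-141570177 and Crym at chr7:120186380-120202111. The libraries did not record strand, so reads from overlapping exons on opposite strands cannot be told apart. Exons of Thra share 263 bases (5.70% of its exon length) with Nr1d1, and those of Dio2 share 100 bases (1.72%) with the non-coding gene Gm26512. No such overlap with another gene was found for Dio3.

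The sequence below is that of the microRNA deleted in the KO animals, followed by its paralog miR-204, which the KO animals keep. Both are mature sequences from RefSeq (GRCm38.p6), and the capitals mark the seed, bases 2 to 8 from the 5′ end.
miR-211-5p: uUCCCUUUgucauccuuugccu
miR-204-5p: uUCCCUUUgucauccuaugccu
miR-211-5p is encoded at chr7:64205831-64205852 inside an intron of Trpm1, and miR-204-5p at chr19:22750610-22750631, both on the plus strand. The seeds are identical, and the substitution from miR-204 to miR-211 is A17U, counted from 1 at the 5′ end. The DNA complement of the seed, AAAGGGA, was searched on the transcribed strand of the longest annotated 3′ UTR of each gene, taken from the stop codon on. It occurred once in Dio2 and 2 times in Thrb, and the sites are shown with 11 bases on either side, the seed match in capitals.
Dio2 site (chr12:90727335-90727363, minus strand): ttgtctggggaAAAGGGAtaatggggaaa
Thrb site, proximal (chr14:18035835-18035863, plus strand): attctccttccAAAGGGAgagggggaggc
Thrb site, distal (chr14:18035934-18035962, plus strand): tgacagttttcAAAGGGAatcagaaaccc
No match was present in the 951 bases of the Dio3 3′ UTR, nor in those of Thra, Slco1c1, Ttr or Crym. Among the 3′ UTRs of 14505 tested genes, 2410 (16.6%) held at least 1 match. The UTRs of Dio2 (4860 bases) and Thrb (4424 bases) were longer than the median of 1210 bases, and a match is a run of letters and no measured site.

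Levels are given as CPM, the read counts scaled to library size with TMM factors, or as FPKM, which also account for gene length, where genes are compared with each other. The libraries held between 20282241 and 36317673 read pairs assigned to genes. The Mir211 gene, 106 bases long, was listed at 0 in all 11 libraries, WT included, so it did not check the genotype. Its host gene Trpm1 had 430 ± 67.2 CPM in WT (SD, n = 5) and 433 ± 19.1 CPM in KO (SD, n = 6). Xist, transcribed in female cells, was at 796 to 1636 CPM in WT1, WT3 and WT5 and at or below 1.29 CPM in the other 8 libraries. Rod genes summed to 27087 to 42634 CPM and RPE genes to 1243 to 1816 CPM, so retina and RPE were present throughout. Ttr, itself among the genes examined here, was the most abundant on the RPE list, at 542 to 931 CPM. Lens genes summed to 61644 CPM in WT4, 18545 CPM in KO3 and 2455 CPM in KO6, against at most 55.3 CPM elsewhere, although the lens had been removed. Cornea and conjunctiva markers summed to 1119 to 7888 CPM, although the cornea had been removed as well. Among them the corneal keratin gene Krt12 ran from 4.26 to 3514 CPM. A study table names 5 libraries by mouse number (WT1, WT2, KO1, KO2 and KO3) and the other 6 by age, and these name series are used below as the only available grouping by library; what else they share is not stated.

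Across the 11 libraries the 7 genes differed widely in level per length. Ttr was the most abundant, with a median of 567 FPKM. Thra followed at 98.8 FPKM and Crym at 25.0 FPKM. Thrb stood at 12.4 FPKM. The other 3 genes were lower, and the deiodinases and the transporter lay below both receptors in the median.

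**Figure D1:**
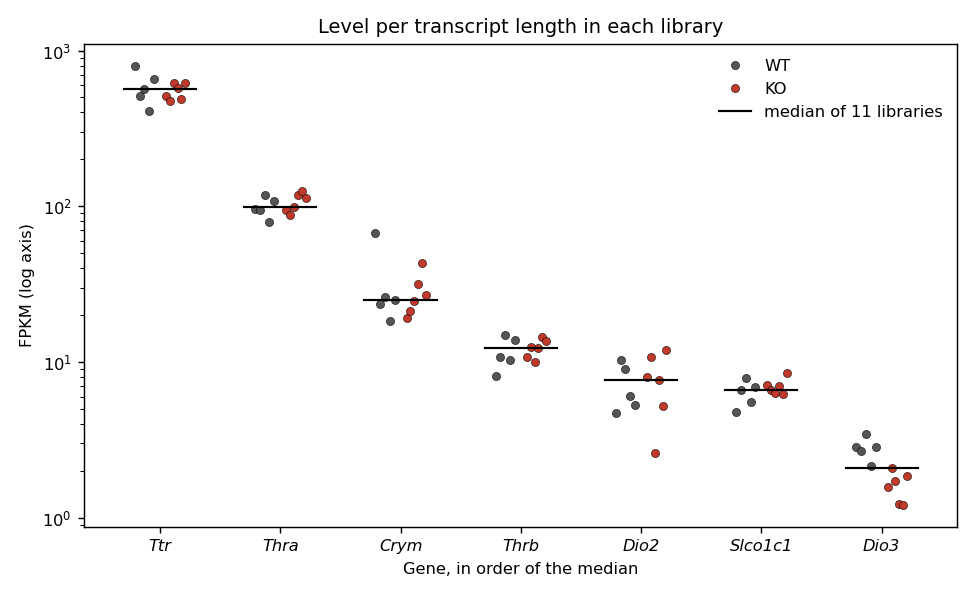
FPKM of the 7 genes on a log axis, 1 point per library (grey WT, red KO), with the median of the 11 libraries as a line. The medians fall from 567 FPKM for Ttr to 2.08 FPKM for Dio3, and the points of Slco1c1 (4.79 to 8.47 FPKM) lie inside the wider range of Dio2 (2.62 to 11.9 FPKM).

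Dio2 and Slco1c1 had medians of 7.63 and 6.61 FPKM, and Dio3 was the lowest at 2.08 FPKM. In 5 of the 6 pairs of neighbours in this order the upper gene was higher in 11 of 11 libraries (two-sided exact sign-flip test on log2 FPKM with a pseudocount of 0.1, p = 0.000977, the smallest the test can give, adjusted p = 0.00117). The steps were 2.45 ± 0.27 from Ttr to Thra, 1.88 ± 0.49 from Thra to Crym, 1.22 ± 0.66 from Crym to Thrb, 0.78 ± 0.58 from Thrb to Dio2 and 1.65 ± 0.54 from Slco1c1 to Dio3 (mean log2 difference ± SD, n = 11). Dio2 and Slco1c1 were not separated: Dio2 was higher in 7 of 11 libraries, the mean log2 difference was 0.047 ± 0.54 (SD), and the exact adjusted p was 0.793. In the WT libraries alone these neighbours stood in the opposite order. The size of a step also depended on the gene length used. With CPM per kb of annotated exon the order of the medians was the same, but Crym (9.79) and Thrb (9.45) lay close together. Dio2 (7.30) and Slco1c1 (3.87) then lay further apart.

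Dio3, which ends the action of thyroid hormone, had the lower level in KO. Its CPM was 5.43, 5.37, 6.00, 4.21 and 4.97 in WT1 to WT5. In the 6 KO libraries the lowest value was 2.28 CPM (KO5), the median 3.27 CPM and the highest 4.09 CPM (KO2). The groups did not overlap in TMM-scaled CPM, and WT4 and KO2 stood closest to each other. The same held for FPKM, where WT lay between 2.16 and 3.45 and KO between 1.21 and 2.08. In CPM the order of WT4 and KO2 rested on the TMM factors, 0.870 for WT4 and 1.00 for KO2. Unscaled, Dio3 had 84 of 23124940 read pairs in WT4 and 149 of 36317673 in KO2, the larger share in KO2.

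Mean Dio3 levels were 5.20 ± 0.66 CPM in WT (SD, n = 5) and 3.11 ± 0.70 CPM in KO (SD, n = 6). The fitted log2 fold change of KO over WT was -0.74 ± 0.20 (SE), that is 39.9% less in KO. Of the 7 genes, Dio3 was the only one whose KO libraries all lay below the WT libraries in TMM-scaled CPM. This pattern was shown by 12 of 15767 tested genes (0.0761%). In 0 of the 7 did all KO libraries lie above, against 0.108% of tested genes. At an adjusted p under 0.1 in the edgeR likelihood-ratio test, 0 of the 7 genes were called, where 1 of all 15767 genes (0.00634%), Xist, was called. At an unadjusted p under 0.05, 1 of the 7 (Dio3) was lower and 0 were higher, against 1.77% and 0.323% of all tested genes, and the quasi-likelihood test and DESeq2 also called 0 of the 7. With the library series as a covariate Dio3 was called at an adjusted p of 0.0291 in edgeR, where 0.0634% of all genes were called. As this contrast chose Dio3, nothing is read from these counts.

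**Figure D2:**
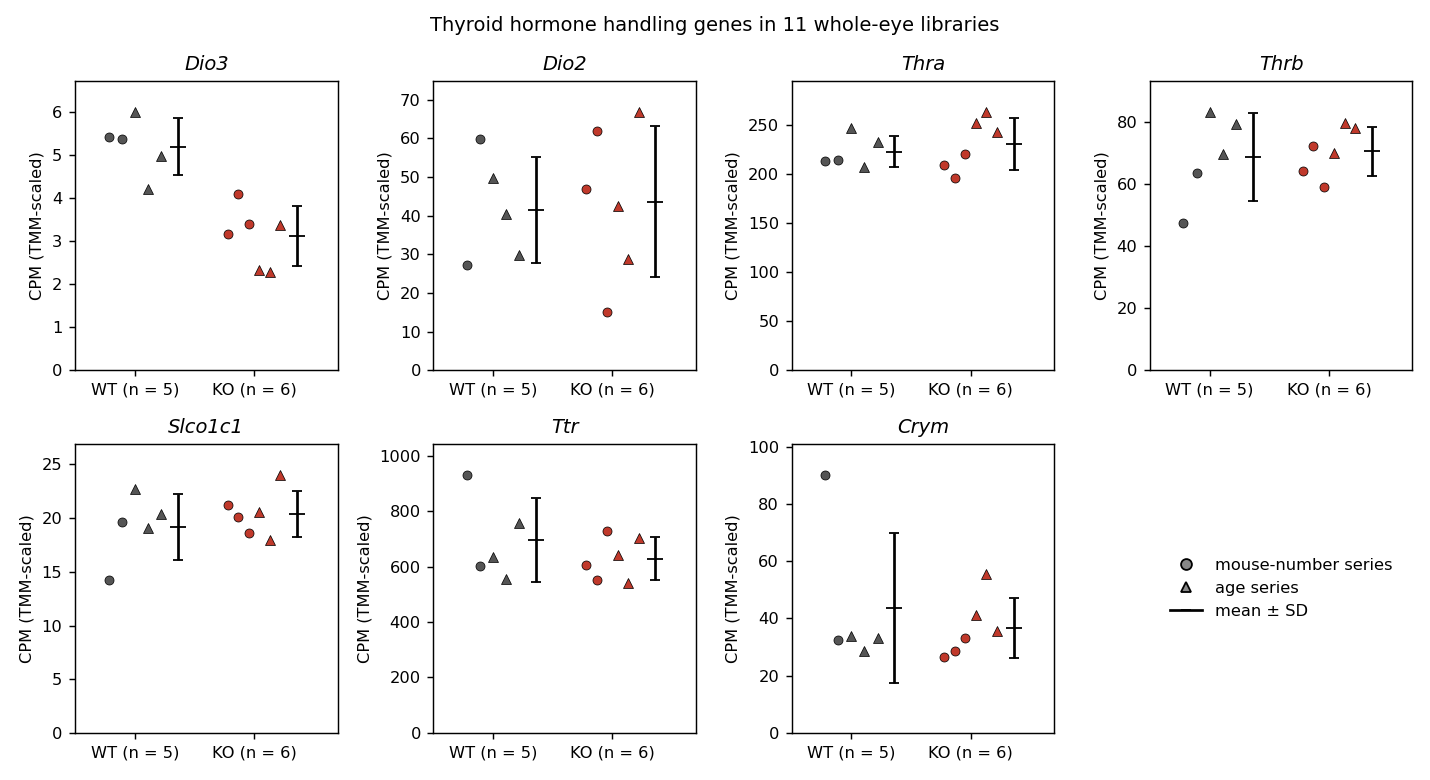
CPM of the 7 genes in each library by genotype (grey WT, red KO; circles, libraries named by mouse number; triangles, libraries named by age), with the mean ± SD. Dio3 separates, from 4.21 to 6.00 CPM in WT and from 2.28 to 4.09 CPM in KO, whereas the other 6 genes overlap.

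Dio3 rested on few reads, 54 to 153 read pairs per library, so that counting alone gave a coefficient of variation of 8.08% to 13.6%. The observed spread between libraries was 12.7% in WT and 22.4% in KO. In the mouse-number series both WT libraries (5.37 and 5.43 CPM) were above the 3 KO libraries (3.16 to 4.09 CPM), with a log2 fold change of -0.59 ± 0.26 (SE). In the age series the 3 WT libraries (4.21 to 6.00 CPM) were above the 3 KO libraries (2.28 to 3.38 CPM), with -0.92 ± 0.28 (SE). The interaction of genotype and series was 0.33 ± 0.35 (log2, SE, edgeR adjusted p = 1.00).

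WT2 and WT4, the WT libraries with next to no Xist, had 5.37 and 4.21 CPM of Dio3, both above the highest KO library. In CPM this held for WT4 only with the TMM factors. In FPKM, WT4 (2.16) was also above the highest KO library, KO2 (2.08). WT2 and WT4 are too few for a comparison of their own here. Since all KO animals were males, sex and genotype cannot be fully told apart. The study reports separate comparisons of WT males and of WT females with the KO males. It calls their results comparable at the level of gene ontology enrichments. Without the 3 libraries that carried lens transcripts the log2 fold change of Dio3 was -0.86 ± 0.26 (SE). In bulk tissue, fewer cells that express a gene and less RNA per cell cannot be told apart.

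Several lists of cell type markers were on the same side of 0 as Dio3. All tested genes were below 0 for lens (5 genes, median log2 fold change -2.19), adipocytes (5 genes, -2.01), blood (5 genes, -0.63), skeletal muscle (7 genes, -0.51), fibroblasts (16 genes, -0.29) and melanocytes (6 genes, -0.12). The summed levels overlapped between WT and KO for each: 18.4 to 61644 against 8.16 to 18545 CPM for lens, 6.82 to 234 against 4.32 to 96.1 CPM for adipocytes, and 198 to 1940 against 145 to 1182 CPM for blood. For skeletal muscle they were 776 to 6522 against 579 to 7066 CPM, and for melanocytes 1240 to 1966 against 1347 to 1935 CPM. Of the leptomeningeal and scleral fibroblast markers, all 16 listed genes were measured in every library and had negative log2 fold changes, with a median of -0.29 against 0.0027 for all tested genes; 0 of the 16 passed an adjusted p under 0.1 in edgeR (0.00634% of all tested genes), and 2 were lower at an unadjusted p under 0.05 (1.77% of all tested genes). Their summed level ranged from 1345 to 3352 CPM in WT and from 752 to 2410 CPM in KO (exact permutation p = 0.268), with Dcn, a matrix proteoglycan, as the most abundant gene. The anion transporter Slc13a4, one of these markers, had 31.2 ± 4.10 CPM in WT (SD, n = 5) and 23.1 ± 2.10 CPM in KO (SD, n = 6). Its groups did not overlap, all KO libraries being lower, as in 0.0761% of all tested genes. Slc13a4 was named with earlier results of these data known, and the pattern is not given for the other markers, so nothing is read from it. Within genotypes the correlation of Dio3 with the summed fibroblast level over the 11 libraries was r = 0.214 (permutation p = 0.555, adjusted over 91 pairs p = 0.918). With the other 5 lists r lay between -0.572 (blood) and 0.262 (skeletal muscle), and none passed. The part of any of these tissues in the Dio3 difference was not tested.

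Dio2, which makes T3, varied the most within KO and did not separate the genotypes. Its CPM was 27.2, 60.0, 49.9, 40.4 and 29.8 in WT1 to WT5. In KO it ran from 15.2 CPM (KO3) over a median of 44.6 to 66.8 CPM (KO6). The highest library thus exceeded the lowest 4.40-fold, and both ends lay within KO. The log2 fold change was 0.075 ± 0.35 (SE) and took either sign when single libraries were left out.

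**Figure D3:**
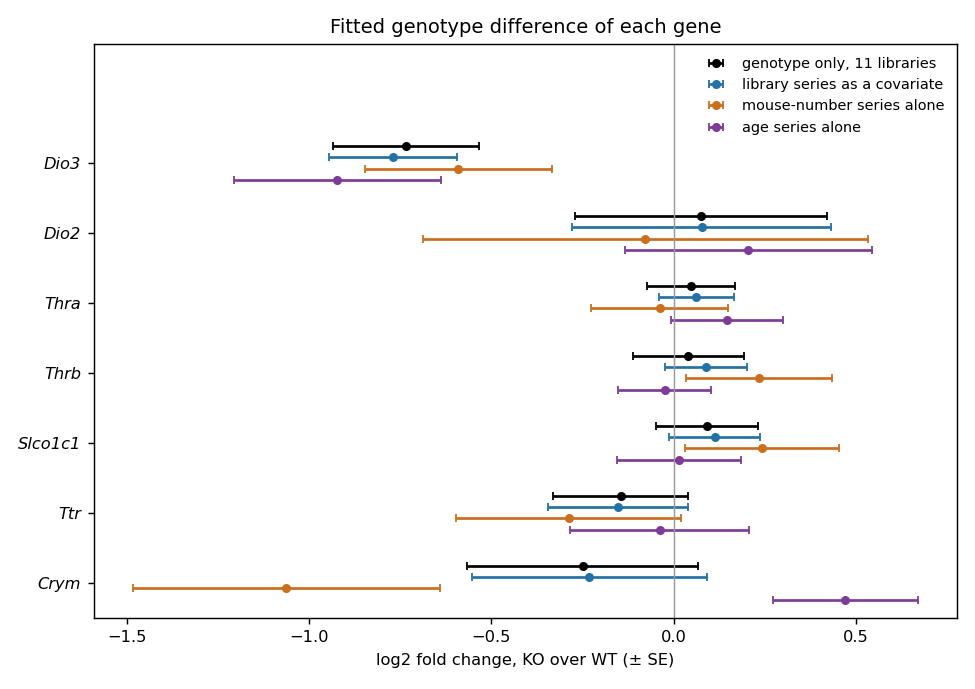
Fitted log2 fold change of KO over WT (± SE) of the 7 genes with genotype alone, with the library series as a covariate, and in each series alone. Dio3 lies below 0 in each fit, between -0.59 and -0.92, and Crym lies on opposite sides of 0 in the 2 series.

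Of the receptors, Thra varied less than Thrb within WT (coefficient of variation 7.31% against 20.7%), and both varied by 11.4% within KO. Thra had 213, 214, 246, 207 and 232 CPM in WT1 to WT5, and 196 CPM (KO2), 231 CPM (median) and 263 CPM (KO5) in KO. Thrb had 47.5, 63.5, 83.3, 69.6 and 79.5 CPM in WT1 to WT5, and in KO 59.0 CPM (KO3), 71.2 CPM (median) and 79.9 CPM (KO5). Both receptors overlapped fully between the genotypes, and WT1 held the lowest Thrb value of all libraries. The log2 fold changes were 0.048 ± 0.12 for Thra and 0.040 ± 0.15 for Thrb (SE). The values do not separate the isoforms of Thrb.

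Slco1c1 had 14.3, 19.6, 22.7, 19.1 and 20.4 CPM in WT1 to WT5, and 18.0 CPM (KO5), 20.3 CPM (median) and 24.0 CPM (KO6) in KO. Ttr had 931, 603, 634, 555 and 756 CPM in WT, and 542 CPM (KO5), 625 CPM (median) and 728 CPM (KO3) in KO. WT1 was thus the lowest library for the transporter and the highest for the carrier. The log2 fold changes were 0.091 ± 0.14 for Slco1c1 and -0.15 ± 0.19 for Ttr (SE), and neither gene separated the genotypes.

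Crym, the cytosolic T3-binding protein, stood out in single libraries and not by genotype. It had 90.2 CPM in WT1, against 32.3, 33.8, 28.7 and 33.2 CPM in WT2 to WT5. In KO it had 26.4 CPM (KO1), 34.3 CPM (median) and 55.4 CPM (KO5). WT1 was far above its group and KO5 was the second highest of all. The log2 fold change was -0.25 ± 0.32 (SE) over all libraries and 0.20 without WT1. It was -1.06 ± 0.42 in the mouse-number series, which holds WT1, and 0.47 ± 0.20 in the age series (edgeR adjusted p = 0.999 and 0.951). In the age series the 3 KO libraries (35.6 to 55.4 CPM) lay above the 3 WT libraries (28.7 to 33.8 CPM). How many of all tested genes separated in this way within that series was not counted, so nothing is read from it. The interaction of genotype and series did not pass the threshold over all genes (-1.53 ± 0.48, edgeR adjusted p = 1.00).

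Deviations within genotypes were compared with 13 lists of cell type markers, 91 pairs in all. Crym followed the summed level of the 9 cone markers, whose most abundant gene was Guca1a, a calcium sensor of phototransduction. The correlation was r = 0.845 over 11 libraries (permutation p = 0.00063, adjusted p = 0.0287) and rho = 0.936 (permutation p = 0.00014, adjusted p = 0.0127). Without WT4 and WT1, the 2 libraries farthest from the median, r was 0.761, and with the series means removed as well it was 0.872. Without TMM factors r was 0.825 and the pair no longer passed (permutation adjusted p = 0.115). The genes most like Crym were Gnb3, the β-subunit of cone transducin, with r = 0.983, and the potassium channel gene Kcng4, with r = 0.974. Gnb3 ranged from 227 to 654 CPM. It is itself among the 9 cone markers, so it also enters the summed level that Crym was compared with. Crym against the list without Gnb3 was not tested.

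**Figure D4:**
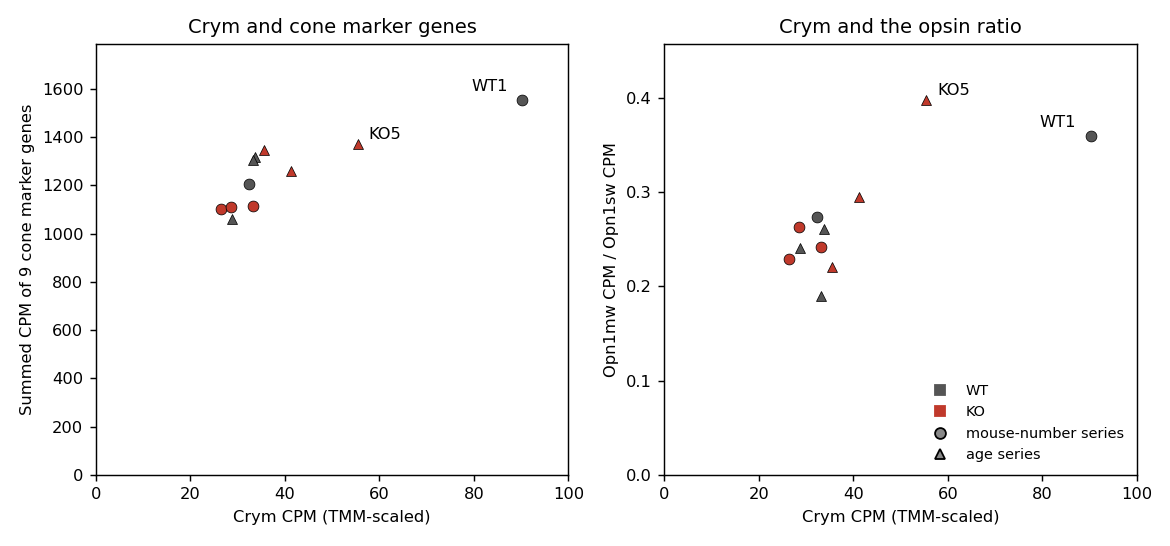
Crym CPM of each library against the summed CPM of 9 cone markers (left) and against the ratio of Opn1mw to Opn1sw (right); grey WT, red KO, circles and triangles for the library series. WT1 and KO5, with 90.2 and 55.4 CPM of Crym, lie to the right in both plots and have the 2 highest opsin ratios.

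The only other pair to pass was Thra with the cornea and conjunctiva markers, of which Krt12, the corneal keratin, was the most abundant. On that list, however, the libraries fell into separate clusters, so no pooled correlation is given. Thra was at 232 to 263 CPM in the 5 libraries with 1119 to 2295 CPM of these markers (WT3, WT5, KO4, KO5 and KO6) and at 196 to 220 CPM in the 6 libraries with 4692 to 7888 CPM. The latter were the whole mouse-number series and WT4, so the clusters nearly repeated the library series. Thra had a mean log2 CPM of 7.72 in the mouse-number series and 7.91 in the age series (mean of the genotype means). Within the 6 libraries of the higher cluster r was -0.580 (exact permutation p = 0.231) and rho was -0.60 (exact permutation p = 0.242), and r was -0.456 without the 2 farthest. Both values are shares of the same libraries. Slco1c1 and the endothelial markers (Kdr the most abundant) had r = -0.844 (permutation p = 0.00828, adjusted p = 0.141), and r was -0.532 without WT1 and KO5. With the series means removed as well this pair passed (r = -0.881, permutation adjusted p = 0.0470). None of the pairs of Dio3 passed, and the smallest p among them was that with the blood markers, where haemoglobin gene Hbb-bs was the most abundant (r = -0.572, permutation p = 0.091, adjusted p = 0.355). Among the 21 pairs of the 7 genes themselves none passed, and Dio3 with Dio2 had r = 0.244 (permutation p = 0.570, adjusted p = 0.665).

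The genes most like Dio3 within genotypes over the 11 libraries were Sned1 (r = 0.916), Galnt7 (r = 0.888), Srsf3 (r = 0.887), Zfp930 (r = 0.878) and Arhgap19 (r = 0.873). They were the closest of 15767 genes, and correlations of this size at the top of so long a list are a description. For Dio2 they were Txlng (r = 0.855) and March6 (r = 0.842), and for Slco1c1 Zfyve9 (r = 0.953) and Gm340 (r = 0.929). For Thra they were Rab3a (r = 0.977) and Srsf4 (r = 0.975), and for Thrb Jarid2 (r = 0.981) and Glul (r = 0.981), the glutamine synthetase of Müller glia. Ttr was followed by Car12 (r = 0.929) and Mpeg1 (r = 0.915). None of these genes was called between genotypes at an adjusted p under 0.1 in edgeR. As only 1 of all 15767 tested genes (0.00634%) was called, nothing is read from this.

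Opsin expression is the readout for which the pathway is best known in cones. The S opsin Opn1sw had a median of 159 FPKM and the M opsin Opn1mw one of 64.9 FPKM. The ratio of Opn1mw to Opn1sw in CPM was 0.359, 0.274, 0.261, 0.241 and 0.190 in WT1 to WT5. It was 0.230, 0.263, 0.242, 0.295, 0.398 and 0.221 in KO1 to KO6. The groups overlapped, and the highest ratios were those of KO5 and WT1, where Crym was also highest. KO5 and WT1 also had the lowest Opn1sw levels, 212 and 219 CPM. A relation of Crym with the ratio was not tested. The mean log2 ratio was -1.95 ± 0.33 in WT (SD, n = 5) and -1.89 ± 0.31 in KO (SD, n = 6), a difference of 0.052 (two-sided exact permutation p = 0.801). Exons of Opn1sw share 397 bases (15.5%) with Calu on the opposite strand, so reads from these bases cannot be assigned to either gene. The log2 fold changes were -0.068 ± 0.14 for Opn1sw and -0.0088 ± 0.13 for Opn1mw (SE).

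The wider pathway comprised 55 other genes, of which 49 passed the filter on low values. At an adjusted p under 0.1 in the edgeR likelihood-ratio test 0 of the 49 were called (0.00634% of all tested genes), and at an unadjusted p under 0.05, 2 were lower in KO and 0 were higher (1.77% and 0.323% of all tested genes). The quasi-likelihood test and DESeq2 called 0 as well. The median log2 fold change of the 49 genes was -0.014, against 0.0027 for all tested genes, with 26 genes below 0 and 23 above.

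**Figure D5:**
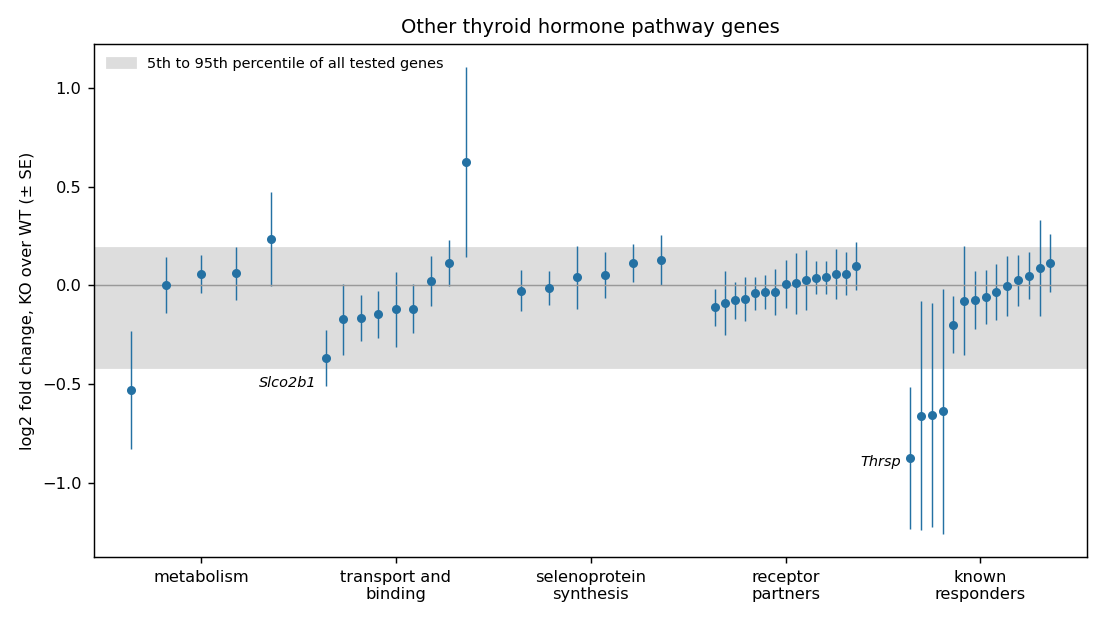
Log2 fold change of KO over WT (± SE) for the 49 tested genes of the wider pathway, by role; the band spans the 5th to 95th percentile of all tested genes (-0.42 to 0.19). Slco2b1 and Thrsp, the 2 genes with an unadjusted p under 0.05, lie at -0.37 and -0.88.

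Of the other enzymes, Dio1, the deiodinase of liver and kidney, was at or below 0.216 CPM in each library and was not tested. Other transporters that can carry thyroid hormone were present. Slc16a10 had 5.34 ± 0.97 CPM in WT and 4.91 ± 0.80 CPM in KO (SD), and the amino acid transporters Slc7a5 and Slc7a8 had log2 fold changes of -0.17 ± 0.18 and -0.12 ± 0.12 (SE). Of the 9 tested transport and binding genes, 6 were below 0 and 3 above.

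Slco2b1, an organic anion transporter that can carry thyroxine, was 1 of the 2 pathway genes with an unadjusted p under 0.05. It had 19.9, 13.8, 14.3, 16.2 and 14.8 CPM in WT1 to WT5. In KO it ranged from 10.5 to 14.5 CPM. The groups overlapped between KO1 and the lowest WT libraries, and the log2 fold change of -0.37 ± 0.14 (SE) had an edgeR adjusted p of 1.00.

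All 15 receptor partners were tested, with log2 fold changes from -0.11 to 0.096. The retinoid X receptor Rxra had 84.8 ± 8.08 CPM in WT and 80.8 ± 8.45 CPM in KO (SD), and Rxrg, which cones express, 7.35 ± 1.01 and 7.41 ± 0.89 CPM. The corepressor Ncor1 had 243 ± 29.0 and 245 ± 15.3 CPM. The 6 genes that place selenocysteine into proteins such as the deiodinases were between -0.026 and 0.13 on the log2 scale, and 0 of them passed at either threshold.

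Of the genes known to respond to thyroid hormone 14 were tested, 10 below 0 and 4 above. Klf9, a direct T3 target in the nervous system, had 125 ± 16.2 CPM in WT and 109 ± 18.1 CPM in KO (SD), with a log2 fold change of -0.20 ± 0.14 (SE). The corepressor gene Hr had 128 ± 13.6 and 125 ± 22.7 CPM, with -0.035 ± 0.14. Thrsp, a hormone-responsive gene of lipid synthesis, had 65.9, 38.9, 14.9, 28.3 and 17.3 CPM in WT1 to WT5 and 14.9 to 29.2 CPM in KO, with -0.88 ± 0.36 (SE, edgeR adjusted p = 1.00). Its highest libraries, WT1 and WT2, also held the most adipocyte transcripts, 234 and 110 CPM summed over 6 genes with Cfd the most abundant, against 4.32 to 96.1 CPM in the others. The part of fat tissue in the Thrsp values was not tested.

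The neighbours of Dio3 in its imprinted domain were 6 listed genes, all tested. At an adjusted p under 0.1 in edgeR 0 of the 6 were called (0.00634% of all tested genes). At an unadjusted p under 0.05, 0 were lower and 0 were higher (1.77% and 0.323% of all tested genes). With shares this small over all genes, nothing is read from these counts. The median log2 fold change of the 6 genes was 0.052. The maternally expressed non-coding RNA Meg3 had 1023, 1267, 1781, 1224 and 1491 CPM in WT1 to WT5 and 1196 to 1606 CPM in KO. The paternally expressed Dlk1 had 1.87 ± 0.37 CPM in WT and 1.53 ± 0.44 CPM in KO (SD), with -0.30 ± 0.25 (SE). The test of each gene's own fold change is no test of its difference from Dio3. The antisense gene Dio3os at chr12:110275385-110278172 was not analysed here.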

How the data were processed

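Whole-eye RNA of 5 WT and 6 KO mice was sequenced as 100-nt read pairs (TruSeq RNA kit). The authors aligned and assigned the reads to Gencode mouse release M4 with RSEM 1.2.19 and deposited, per library and gene, the expected count (estimated read pairs, not scaled for depth) and the FPKM (per length and depth). Groups and replicate numbers came from the labels.

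The expected counts were rounded and fitted with edgeR 4.0.16 (R 4.3.3; TMM, estimateDisp, likelihood-ratio test on genotype) for the 15767 genes that reached 1 CPM in 5 or more libraries, with Benjamini-Hochberg adjustment and a threshold of 0.1. Log2 CPM used a prior count of 2. FPKM entered no count test and ordered the levels on a log2 scale with a pseudocount of 0.1, on which differences of low genes are understated. Exact tests, and 100000 draws within genotypes for correlations, were run in Python 3.11.15. As alternatives, DESeq2 1.42.0, the quasi-likelihood test and limma 3.58.1 on log2 FPKM were run, with other scalings and filters, the replicate block, the library series and libraries left out. Procedures were tested on simulated data.

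The members and gene lists were chosen with earlier results of these data known. Genes named were the 7 members, a fixed set of pathway, domain and control genes, pathway genes with an adjusted p under 0.1 or an unadjusted p under 0.05, the 5 genes most like Dio3 and the 2 most like each other member, and the most abundant gene of each marker list discussed; a gene of the fixed set is not reported here. The library series came from the column names of a study table whose values matched single libraries (coefficient of variation of the ratio at most 0.196%, next best at least 24.5%). Positions and UTRs came from GENCODE M21 on GRCm38.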

Additional observations from a re-analysis of the deposited data

Results flagged for a closer look

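The Crym value of WT1 (90.2 CPM) was set apart from the other WT libraries (28.7 to 33.8 CPM) by a gap that made up 0.859 of the range of the log2 values, above Dixon's critical value of 0.71 for 5 libraries. The Opn1sw value of KO5 (212 CPM) was likewise far below the other KO libraries (255 to 282 CPM). Chance flags about 1 in 20 groups, and 18 groups of values were examined.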

How the results depend on the processing

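Over all tested genes, 1 gene was called in the reported edgeR fit. The quasi-likelihood test called 0 (446 genes at an unadjusted p under 0.05), and DESeq2, RLE size factors and a filter of at least 1 count in any library each called 2. Dropping single libraries gave 1 to 11 calls, 11 without KO replicate 1 and 2 without WT replicate 2. The library series as a covariate gave 10 calls, the mouse-number series alone 7 and the age series alone 38. The number of the 7 members called was 0 in the reported fit and 1 (Dio3) with the series as a covariate; the cause was not tested.

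Same-numbered WT and KO libraries did not deviate together throughout (r from -0.33 to 0.63, over 0.1 in 3 of 5 pairs), so the numbers were not taken as pairs. With a replicate block, which leaves out KO replicate 6, 10 genes were called, among them 1 member, Dio3 (log2 fold change -0.78, edgeR adjusted p = 0.0948), and Dio2 was at -0.15; same-numbered pairs gave a difference of 0.11 in the log2 opsin ratio (exact p = 0.75).

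Dio3 stayed below 0 in each of 26 fits, from -0.92 to -0.54 on the log2 scale. Ttr also stayed below 0. The fits share libraries and this contrast chose Dio3, so its constant sign is a description and not evidence. Leaving out single libraries moved the log2 fold change from -0.087 to 0.25 for Dio2, from -0.067 to 0.12 for Thrb, from -0.00015 to 0.16 for Slco1c1 and from -0.40 to 0.20 for Crym, none of them called, and the opsin difference from -0.061 to 0.17. In the mouse-number series alone Dio2 was at -0.078 and Thra at -0.039, and in the age series alone Thrb was at -0.025 and Crym at 0.47. Without TMM factors 0 of 91 marker pairs passed, against 2, and with series means removed 3, the third being Slco1c1 with the endothelial markers. The fits within a series, and without the 3 libraries with lens transcripts, were chosen after seeing the data. The depth limits Dio3 most: at 54 to 153 read pairs, small differences between libraries are not resolved.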
